A study of Homo sapiens with 16 samples.

Results

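The hypoxia factors and glycolysis genes are a module of 38 genes chosen by gene symbol, from what their products are known to do. The choice was made with earlier results of these data known. They are 38 of the 63501 Ensembl identifiers in the gene-level table. The module holds the 2 oxygen-sensing factors HIF1A and EPAS1, the 2 prolyl hydroxylases EGLN1 and EGLN3, 10 target genes of these factors, 2 glucose transporters, 9 enzymes of upper glycolysis, 2 enzymes that set fructose-2,6-bisphosphate, 6 enzymes of lower glycolysis, 3 genes that act on pyruvate and 2 lactate transporters. The lines MiaPaCa2 and PANC1 were each established from 1 human pancreatic carcinoma, and both were grown in a high-glucose medium. Each line was studied as a control with neither drug, after 40 nM gemcitabine, after 50 µM genistein and after both drugs (co-treatment), always for 24 hours. Gemcitabine is a nucleoside analogue that blocks DNA synthesis, and genistein is a soy isoflavone that binds estrogen receptors and inhibits tyrosine kinases. Each of the 8 groups had 2 biological replicates, I and II, which gave 16 poly-A RNA libraries, and oxygen supply was not a variable of the design.

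HIF1A and EPAS1 encode the alpha subunits of the hypoxia-inducible factors HIF-1 and HIF-2. In the presence of oxygen the EGLN enzymes hydroxylate the alpha subunits, which marks them for destruction through the VHL ubiquitin ligase, and in low oxygen the subunits accumulate, pair with ARNT and switch on genes for angiogenesis, pH control and glucose use. Because this control acts mainly on the protein, transcript levels of HIF1A and EPAS1 are not a measure of factor activity. Glycolysis turns glucose into pyruvate, which lactate dehydrogenase converts to lactate for export, and pancreatic ductal tumours are known for poor perfusion and for heavy use of this route.

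Reads counted on genes ranged from 12943482 to 31991860 per library. Keratins and other ductal and epithelial markers were above 1 FPKM (fragments per kilobase of transcript, scaled to the mapped reads of the library) in 7 of 7 cases in PANC1 and in 4 of 7 in MiaPaCa2, where KRT7, EPCAM and CDH1 were below it, and no acinar, endocrine or endothelial marker reached it in either line. Of the other lists, 4 of 6 mesenchymal markers passed this level in MiaPaCa2 and 3 of 6 in PANC1, 1 of 5 leukocyte markers (CD68) in each line, and 1 of 4 fibroblast markers (PDGFRB) in PANC1 alone. Differences between groups were tested on the counts with limma-voom, and a gene was called when its adjusted p (Benjamini-Hochberg, over all genes tested) was at most 0.05, its log2 fold change was at least 0.4 in either direction and its mean FPKM in the treated group was above 1. With 2 libraries per group, the p-values measure the spread between these libraries. Groups of 2 libraries often fail to overlap without any difference, so a lack of overlap is given below as description only. Low-count genes could not be tested, which left 35 of the 38 members in MiaPaCa2, without CA9, BNIP3 and LDHB, and 36 in PANC1, without CA9 and SLC2A3.

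The untreated lines differed first in the levels of their oxygen-sensing factors. HIF1A stood at 83.1 and 74.8 FPKM in the MiaPaCa2 controls (replicates I and II, as throughout) and at 26.4 and 40.0 FPKM in the PANC1 controls. EPAS1 stood at 1.12 and 1.47 FPKM in MiaPaCa2 and at 60.2 and 58.3 FPKM in PANC1. Neither gene overlapped between the lines, and the differences had opposite directions, with HIF1A lower in PANC1 (log2 fold change -1.15 ± 0.17 (SE), adjusted p = 4.83e-05) and EPAS1 higher (log2 fold change 5.53 ± 0.17 (SE), adjusted p = 2.42e-11). EPAS1 made up 1.33% to 17.5% of the summed HIF1A and EPAS1 FPKM in the 8 MiaPaCa2 libraries and 53.7% to 74.0% in the 8 PANC1 libraries. These values are averages over a culture, so fewer cells with a transcript and less of it per cell cannot be told apart. EGLN1, the main oxygen sensor among the hydroxylases, was lower in PANC1 (log2 fold change -0.85 ± 0.12 (SE), adjusted p = 3.36e-05), whereas EGLN3 was low in both lines, at 0.229 and 0.277 FPKM in MiaPaCa2 and 0.518 and 0.601 FPKM in PANC1, and was not called (adjusted p = 0.104).

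Among the hypoxia targets, 4 of the 9 that could be tested were higher in untreated PANC1 and 1 was lower. Of all genes, 27.9% were called higher and 24.3% lower. ADM, which encodes the vasodilator peptide adrenomedullin, was at 1.62 and 1.55 FPKM in MiaPaCa2 and at 41.8 and 36.5 FPKM in PANC1 (log2 fold change 4.72 ± 0.34 (SE), adjusted p = 5.16e-08). BNIP3, a receptor for the removal of mitochondria, had 0 reads in both MiaPaCa2 controls and 500 and 832 reads in the PANC1 controls, so that it was at least 122-fold higher in PANC1 when MiaPaCa2 is set to 3 counts per library. ANKRD37 and the collagen prolyl hydroxylase P4HA1 were also higher in PANC1, by 1.48 and 0.55 on the log2 scale (adjusted p = 0.00273 and 0.00675), and P4HA2 was the lower one (-0.42, adjusted p = 0.00258). The ANKRD37 and P4HA2 calls were lost without replicate I of the MiaPaCa2 control, and those of P4HA1 and P4HA2 without replicate II of the PANC1 control. VEGFA, the angiogenic growth factor, differed by 0.34 on the log2 scale and did not reach the fold threshold. CA12, a carbonic anhydrase of the cell surface, had a log2 fold change of -1.14 (adjusted p = 0.0045) but stayed at or below a mean of 1 FPKM in both controls, and NDRG1 and KDM3A were not called. CA9, the classical carbonic anhydrase of hypoxic cells, had 0 reads in all 8 MiaPaCa2 libraries, which allows up to 0.135 to 0.229 CPM, the count of a gene scaled to the size of the library, depending on the library, and 0 to 3 reads in each PANC1 library, so it was not tested in any comparison. About 35.7% of its exon length lies opposite ARHGEF39 on the other strand.

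Among the glycolytic isoenzymes, LDHB was close to the detection limit in MiaPaCa2 and abundant in PANC1. LDHB, the lactate dehydrogenase subunit that favours conversion of lactate to pyruvate, was at 0.816 and 0.766 FPKM in the MiaPaCa2 controls and at 797 and 922 FPKM in the PANC1 controls, against 789.5 and 740.2 and 709 and 725 FPKM for LDHA. The 8 and 5 reads in MiaPaCa2 and 10436 and 17990 reads in PANC1 gave a ratio of 1229, with a 95% exact binomial interval of 719 to 2309 for counting error alone. Over all treatments LDHB took 52.9% to 63.3% of the summed lactate dehydrogenase FPKM in PANC1 and at most 0.103% in MiaPaCa2. LDHA itself had a log2 fold change of -0.18 (adjusted p = 0.0558) and was not called. About 33.4% of the LDHB exon length is shared with another annotated gene, as is 55.8% for EGLN1 and 54.2% for ALDOA, and reads there cannot be told apart without knowledge of the counting.

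The glucose transporters and the minor hexokinase were lower in PANC1. SLC2A1, which encodes the widespread transporter GLUT1, was at 36.0 and 34.2 FPKM in MiaPaCa2 and 21.1 and 16.3 FPKM in PANC1 (log2 fold change -1.09 ± 0.12 (SE), adjusted p = 2.55e-06). SLC2A3, which encodes the high-affinity transporter GLUT3, had 259 and 190 reads in the MiaPaCa2 controls and 3 and 3 in the PANC1 controls, a ratio of 133 in favour of MiaPaCa2 (95% exact binomial interval 60.7 to 365 for counting error alone). HK2, the inducible hexokinase of many tumours, was at 6.87 and 7.13 FPKM in MiaPaCa2 and at 0.926 and 1.04 FPKM in PANC1 (log2 fold change -2.85 ± 0.14 (SE), adjusted p = 1.65e-09), while HK1, at 62.7 and 55.0 FPKM in MiaPaCa2 and 71.3 and 65.8 FPKM in PANC1, was not called (adjusted p = 0.209). HK1 supplied most hexokinase FPKM in both lines, 88.5% to 92.6% in MiaPaCa2 and 96.0% to 98.7% in PANC1.

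Phosphofructokinase, which commits sugar to glycolysis, also differed in its make-up. PFKP, the platelet-type subunit, was higher in PANC1 (0.99 on the log2 scale, adjusted p = 6.73e-05), and the liver-type PFKL and muscle-type PFKM were lower (-1.58 and -0.53, adjusted p = 4.8e-05 and 3.87e-04). PFKP contributed 67.3% to 73.3% of phosphofructokinase FPKM in the PANC1 libraries and 37.4% to 43.8% in those of MiaPaCa2. PFKFB3 and PFKFB4, which make and break down the phosphofructokinase activator fructose-2,6-bisphosphate, differed in opposite directions, PFKFB3 by -0.96 and PFKFB4 by 0.74, but PFKFB4 was at 0.33 and not called after correction for GC content. The same correction gave 0.63 for PFKP, -2.50 for PFKL and -0.84 for PFKM, all called, and PFKM was not called without replicate II of the PANC1 control. For lactate, the exporter SLC16A3 (MCT4) was higher in PANC1 (1.87, adjusted p = 1.02e-05, and 0.85 after correction for GC content), and SLC16A1 (MCT1), which carries lactate in either direction, was lower (-1.63, adjusted p = 4.57e-08).

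**Figure D1:**
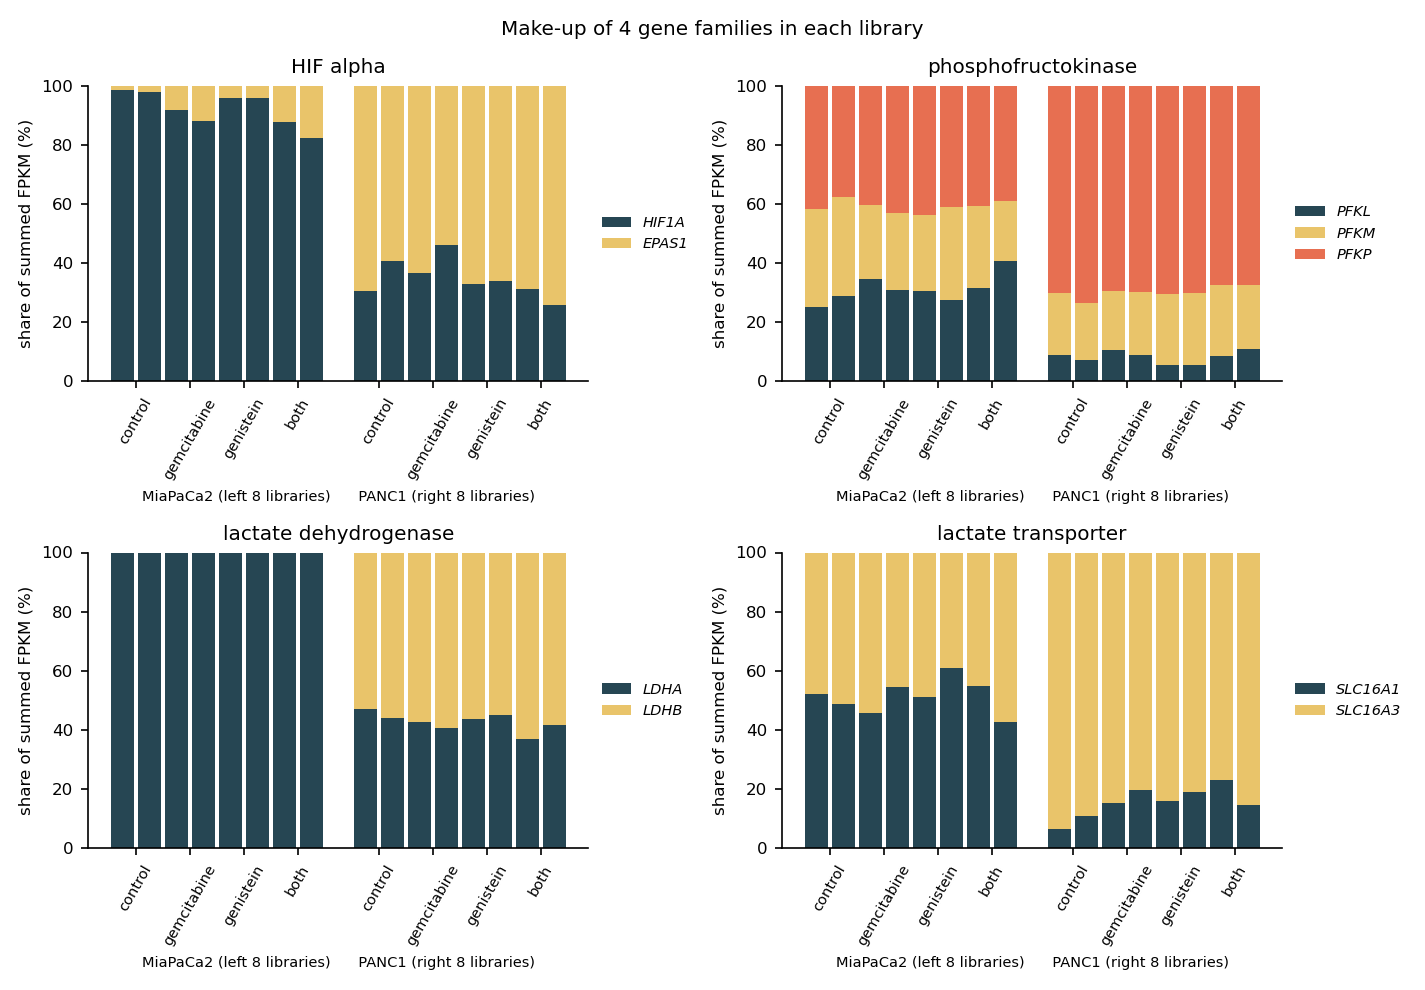
Share of the summed FPKM of each family (y axis, percent) that each gene took in each of the 16 libraries (bars, in pairs of replicates by treatment, MiaPaCa2 left and PANC1 right), for the HIF alpha subunits, the phosphofructokinases, the lactate dehydrogenases and the lactate transporters. EPAS1 reached at most 17.5% in MiaPaCa2 and at least 53.7% in PANC1, and LDHB was next to absent in MiaPaCa2.

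Of the remaining enzymes, GPI, TPI1, GAPDH and ENO2 were lower in PANC1, with log2 fold changes of -0.81, -1.34, -1.28 and -1.06. PGAM1 was higher by 0.51, a call lost after correction for GC content (0.19) and without replicate I of the PANC1 control, and ALDOA, ALDOC, PGK1, ENO1, PKM and the pyruvate dehydrogenase kinase PDK1 were not called. GAPDH, TPI1, ENO2 and SLC2A3 lie close together on the short arm of chromosome 12, where GAPDH spans chr12:6643678-6647540, TPI1 chr12:6976283-6980112, ENO2 chr12:7022909-7032861 and SLC2A3 chr12:8071826-8171603 (GRCh37). All were lower in PANC1, and of the 62 other tested genes that start within 1 Mb of any of them 40 were called lower and 6 higher, with a median log2 fold change of -0.89 against 0.06 over all genes. This stretch was looked at after the values of the members had been seen.

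Altogether 10 of the 37 members tested between the untreated lines were called higher in PANC1 and 14 lower, against 27.9% and 24.3% of all genes, and the median log2 fold change of the members was -0.14. After a correction for GC content, which shifted the median of all genes from 0.06 to -0.24, the split was 8 higher and 18 lower. The shares of all genes called under that correction are not given here, so this split does not set the members apart from other genes. The members have a median exon GC content of 53.4%, above the 48.1% of all tested genes. BNIP3, GAPDH and PGAM1 have 44, 65 and 13 named pseudogenes in the annotation, 17.6% of the GAPDH exon length lies opposite a non-coding RNA gene, and reads with several alignments were removed by the authors, so the values of these genes depend on how that removal worked.

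**Figure D2:**
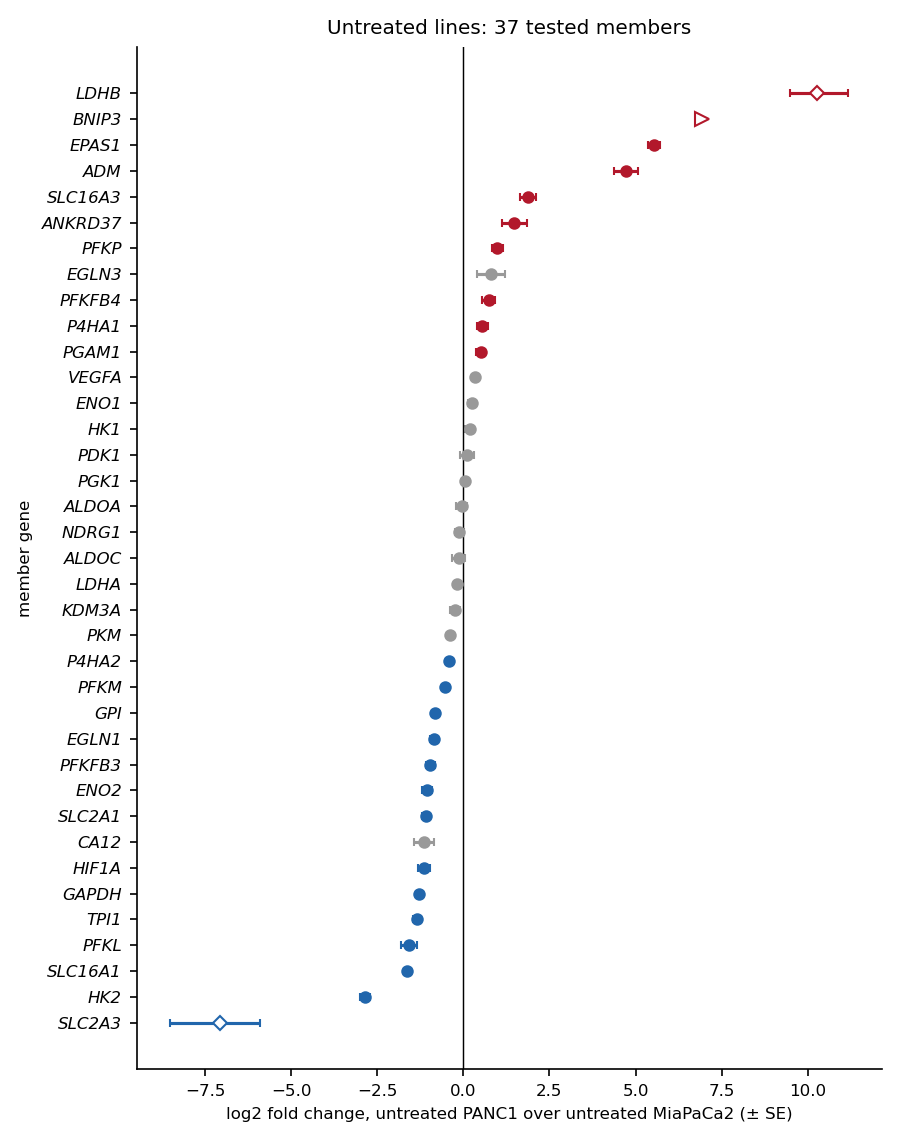
Log2 fold change of untreated PANC1 over untreated MiaPaCa2 (x axis) for the 37 tested members (y axis), with standard errors, red for called higher, blue for called lower and grey for not called. The open triangle of BNIP3 is a lower bound against 3 counts per library, and the open diamonds of LDHB and SLC2A3 are ratios of summed counts with 95% counting intervals.

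PKM, the last enzyme of the pathway, makes 2 well-known proteins by including either of 2 mutually exclusive exons, PKM1 in differentiated muscle and brain and PKM2 in proliferating and tumour cells. The isoform table lists 24 transcripts of the gene. The transcript with the PKM2 exon (ENST00000335181) ranged from 773 to 1700.2 FPKM over the 16 libraries, and the transcript with the PKM1 exon (ENST00000319622) had a median of 1.51 and a maximum of 3.44 FPKM. The PKM1 transcript thus took at most 0.337% of the estimated FPKM of this pair in any library, control or treated. The whole gene had a median of 2417 FPKM in MiaPaCa2 and 1895 FPKM in PANC1. The PKM2 transcript had a median of 1031 FPKM over the 16 libraries, so other listed transcripts held much of the gene's FPKM. Which of the 2 exons those hold was not examined, and the share of PKM1 in the whole gene is not settled. Both exons lie on the minus strand of GRCh37 and are 167 bases long, the PKM2 exon at chr15:72494795-72494961 and the PKM1 exon at chr15:72495363-72495529. They are shown because the isoforms differ in this exon alone. They differ at 62 positions, given in capitals, so that 62.9% of the bases are identical.
PKM2 exon: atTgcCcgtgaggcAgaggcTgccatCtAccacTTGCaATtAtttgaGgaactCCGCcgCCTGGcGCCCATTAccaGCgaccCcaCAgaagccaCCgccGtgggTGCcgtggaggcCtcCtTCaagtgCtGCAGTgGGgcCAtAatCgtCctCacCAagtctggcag
PKM1 exon: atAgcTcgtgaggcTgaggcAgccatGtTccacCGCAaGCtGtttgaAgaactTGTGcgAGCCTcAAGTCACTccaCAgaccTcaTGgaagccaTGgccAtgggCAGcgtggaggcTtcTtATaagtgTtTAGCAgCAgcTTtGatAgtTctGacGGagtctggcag

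Gemcitabine in MiaPaCa2 moved the hypoxia genes in both directions. EPAS1 and EGLN3 rose several-fold and ADM, NDRG1, CA12 and ANKRD37 rose with them, whereas HIF1A and VEGFA fell. Of the 35 members tested, 10 were called higher and 5 lower, against 15% and 14.6% of all genes. EPAS1 rose from 1.12 and 1.47 FPKM in the controls to 4.67 and 7.48 FPKM (log2 fold change 1.74 ± 0.19 (SE), adjusted p = 3.2e-05). EGLN3, whose product hydroxylates the alpha subunits and whose gene is itself a hypoxia target, rose from 0.229 and 0.277 to 2.04 and 2.62 FPKM (log2 fold change 3.09 ± 0.40 (SE), adjusted p = 1.02e-04), on 6 and 12 reads in the controls and 89 and 81 reads after the drug. The treated libraries lay above the controls in both genes without overlap. ADM rose from 1.62 and 1.55 to 6.34 and 5.73 FPKM (log2 fold change 1.89 ± 0.25 (SE), adjusted p = 1.36e-04) and NDRG1, a gene induced by hypoxia and other stress, from 17.1 and 17.8 to 61.0 and 46.5 FPKM (log2 fold change 1.47 ± 0.11 (SE), adjusted p = 3.8e-06).

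CA12 and ANKRD37 rose from lower levels, by 1.21 and 1.18 on the log2 scale (adjusted p = 0.00362 and 0.0256), and CA12, with 65 and 26 reads in the controls, lay at 1.74 without replicate I and 0.76 without replicate II of the control. The ANKRD37 call was lost when any one of the 4 libraries compared was left out. About 40.3% of the ANKRD37 exon length lies opposite UFSP2 on the other strand, and the strand setting of the counting is not given in the sources used here. EGLN1, P4HA1, P4HA2 and KDM3A, at -0.28, 0.22, 0.25 and 0.17, were not called. HIF1A fell from 83.1 and 74.8 to 53.5 and 55.9 FPKM (log2 fold change -0.63 ± 0.11 (SE), adjusted p = 0.00106), a call lost under the correction for GC content (-0.33). VEGFA fell from 24.6 and 21.1 to 12.2 and 16.1 FPKM (log2 fold change -0.75 ± 0.10 (SE), adjusted p = 1.2e-04). The slope of counts on GC content, in log2 units per 10 points, was -0.21 and -0.13 in the MiaPaCa2 controls, 0.12 and 0.044 after gemcitabine and 0.030 and 0.27 after co-treatment, so that it moved with the drug responses described here. The 8 hypoxia targets that could be tested had a median log2 fold change of 0.71 against -0.01 over all genes. For 28 other tested hypoxia target genes, a list described further below, the median was 0.16, with 18 above and 10 below zero.

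In the glycolytic part, gemcitabine lowered ENO1, PKM and LDHA and raised minor isoenzymes. ENO1, the main enolase, fell from 1819 and 1671 to 1264 and 1389.5 FPKM (log2 fold change -0.53 ± 0.07 (SE), adjusted p = 1.83e-04). PKM fell by 0.55 on the log2 scale (adjusted p = 7.68e-05), from 2629 and 2478 to 1950.3 and 1981 FPKM, and LDHA fell by 0.49 (adjusted p = 6.77e-04), from 789.5 and 740.2 to 574 and 639 FPKM. The LDHA call was lost without replicate I of gemcitabine or with scaling by library size alone. The brain-type aldolase ALDOC rose from 2.89 and 3.41 to 11.7 and 11.4 FPKM (log2 fold change 1.63 ± 0.18 (SE), adjusted p = 3.53e-05), the neuron-type enolase ENO2 rose by 0.55 (adjusted p = 0.00128, but 0.29 and not called after correction for GC content) and PFKFB4 by 0.83 (adjusted p = 8.12e-04). ALDOC and ENO2 remained a small part of their families, at 0.103% to 0.766% of aldolase FPKM and 2.23% to 5.88% of enolase FPKM over all MiaPaCa2 libraries.

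PFKL was called higher (0.41, adjusted p = 0.0389), but its log2 fold change was -0.11 after correction for GC content. GAPDH and TPI1, at -0.39 and -0.27, had adjusted p below 0.05 without reaching the fold threshold, as did PFKFB3 at 0.38 and HK2 at -0.33. HK1, GPI, PFKM, PFKP, ALDOA, PGAM1, SLC16A1 and SLC2A3 lay between -0.17 and 0.29. SLC2A1, PGK1 and SLC16A3 had log2 fold changes of -0.05, -0.04 and -0.00, and were not called. For PFKFB3 the FPKM values differed more than the counts, going from 19.0 and 16.5 to 42.1 and 40.8 FPKM against 62.1 and 62.7 to 93.6 and 81.1 CPM. PDK1 went from 2.81 and 2.43 to 3.71 and 4.04 FPKM but from 7.06 and 7.59 to 6.22 and 5.67 CPM, and its direction was therefore not settled by these files. Among the 60 called values of members in the treatment comparisons, FPKM and counts disagreed in direction in 0 and by more than 0.5 on the log2 scale in 2, both of them PFKFB3 after co-treatment. Under the correction for GC content, 9 members were called higher and 9 lower after gemcitabine, and the share of all genes under it is not given here.

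**Figure D3:**
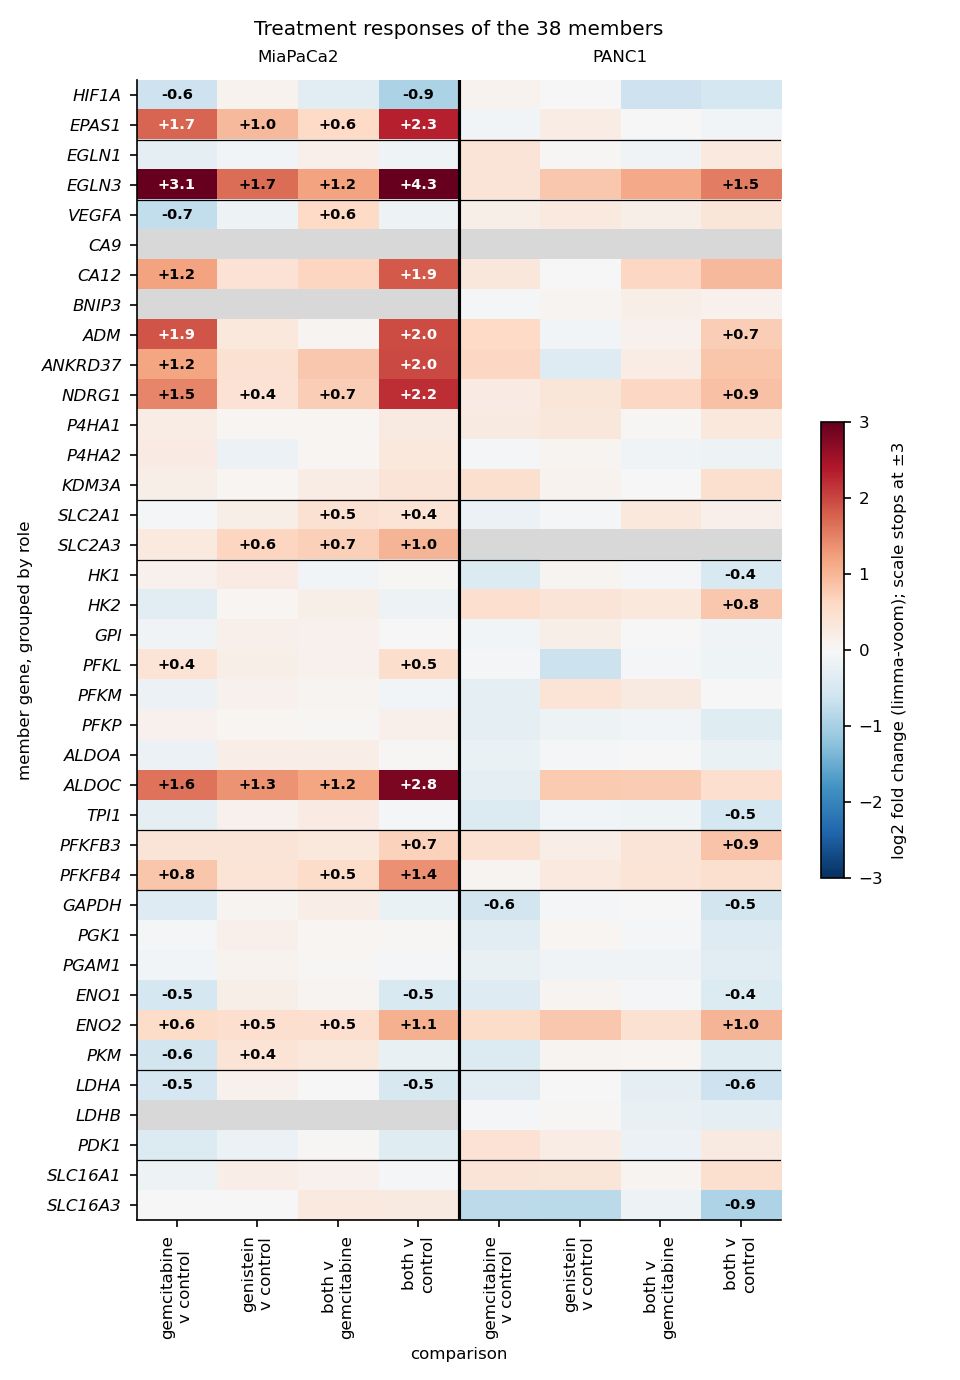
Log2 fold changes of the 38 members (rows, grouped by role) in 4 treatment comparisons in MiaPaCa2 (left 4 columns) and PANC1 (right 4 columns), where both stands for co-treatment. Colour gives the fold change on a scale that stops at ±3, a printed value marks a called gene and grey an untested one. EPAS1, EGLN3, NDRG1, ALDOC and ENO2 are called in all 4 MiaPaCa2 columns, and the genistein column of PANC1 holds none. After correction for GC content, ENO2 after gemcitabine and NDRG1 after genistein are not called in MiaPaCa2.

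Genistein alone in MiaPaCa2 raised 7 members and lowered 0, against 4.18% higher and 4.13% lower among all genes. EPAS1 rose to 3.41 and 3.22 FPKM (log2 fold change 0.97 ± 0.20 (SE), adjusted p = 0.0112) and EGLN3 to 1.27 and 0.822 FPKM (log2 fold change 1.68 ± 0.43 (SE), adjusted p = 0.0264), both without overlap with the controls and below the gemcitabine libraries. ALDOC rose to 8.85 and 6.98 FPKM (log2 fold change 1.34 ± 0.18 (SE), adjusted p = 0.00139). SLC2A3 rose by 0.64, ENO2 by 0.51, NDRG1 by 0.43 and PKM by 0.40 on the log2 scale, with adjusted p from 0.00398 to 0.04. HIF1A, VEGFA, SLC2A1, HK2, PGK1, LDHA and SLC16A3 had log2 fold changes between -0.14 and 0.17, and none was called. Without replicate I or replicate II of the control, only ALDOC of the 7 remained called, and without replicate I of genistein ALDOC, EPAS1 and SLC2A3 did. EGLN3 lay between 1.0 and 2.27 over the alternatives, the lower value without replicate I of the control.

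Adding genistein to gemcitabine in MiaPaCa2 raised 9 members and lowered 0, against 4.05% higher and 1.83% lower among all genes. VEGFA rose from 12.2 and 16.1 FPKM under gemcitabine to 23.3 and 26.8 FPKM under both drugs (log2 fold change 0.60 ± 0.10 (SE), adjusted p = 0.00397). The co-treated VEGFA values overlapped the control values, 24.6 and 21.1 FPKM, with which they were compared separately (-0.14, adjusted p = 0.217). ALDOC rose from 11.7 and 11.4 to 23.5 and 26.0 FPKM (log2 fold change 1.19 ± 0.13 (SE), adjusted p = 4.55e-04), EGLN3 from 2.04 and 2.62 to 6.68 and 6.42 FPKM (log2 fold change 1.22 ± 0.20 (SE), adjusted p = 0.0039) and NDRG1 from 61.0 and 46.5 to 71.0 and 82.4 FPKM (log2 fold change 0.74 ± 0.09 (SE), adjusted p = 9.72e-04). The same gemcitabine libraries enter this comparison and the one with the control, in opposite roles. ALDOC, EGLN3 and NDRG1 were each higher in both co-treated libraries than in either gemcitabine library.

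Both glucose transporters rose with the addition of genistein, SLC2A1 from 38.5 and 38.1 to 51.8 and 55.1 FPKM (log2 fold change 0.46 ± 0.09 (SE), adjusted p = 0.0104) and SLC2A3 from 8.10 and 6.59 to 12.29 and 11.98 FPKM (log2 fold change 0.72 ± 0.12 (SE), adjusted p = 0.00525). The SLC2A1 call was lost under the correction for GC content. EPAS1, PFKFB4 and ENO2 rose by 0.59, 0.55 and 0.51 on the log2 scale, and the EPAS1 values of 4.67 and 7.48 and 6.80 and 7.69 FPKM overlapped. HIF1A was at -0.32, HK2 at 0.18, PGK1 at 0.07, LDHA at 0.01 and SLC16A3 at 0.28, and none was called. Without replicate I of gemcitabine 3 members were called (NDRG1, ALDOC and ENO2), and without its replicate II 3 (NDRG1, SLC2A3 and ALDOC). Without replicate II of the co-treatment EPAS1 and PFKFB4 were not called.

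Whether the effect of genistein depended on gemcitabine was tested as an interaction. No member of the 35 was called in MiaPaCa2 by limma-voom or by edgeR's quasi-likelihood test, with 4 members at an unadjusted p under 0.05, and 0.0249% of all genes were called. A correction for GC content called 2, HIF1A and VEGFA, and 0 when the replicate block was added to it. VEGFA had the smallest p among the members, with a log2 interaction of 0.74 and an adjusted p of 0.113. The Wald test of DESeq2 called 1 member, VEGFA. In PANC1 0 of 36 members were called by limma-voom, edgeR or DESeq2, against 0% of all genes by limma-voom, and 1 member had an unadjusted p under 0.05. For neither line is the share of all genes at that unadjusted level given here.

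Set against the control, co-treatment in MiaPaCa2 raised EGLN3, ALDOC, EPAS1 and NDRG1 by more than 2 on the log2 scale. The test called 13 members higher and 3 lower, against 20.3% and 20.2% of all genes. The split was 12 to 6 under the correction for GC content, for which the shares of all genes are not given here. EGLN3 rose from 0.229 and 0.277 to 6.68 and 6.42 FPKM (log2 fold change 4.31 ± 0.38 (SE), adjusted p = 2.37e-06), ALDOC from 2.89 and 3.41 to 23.5 and 26.0 FPKM (log2 fold change 2.82 ± 0.17 (SE), adjusted p = 1.83e-07) and EPAS1 from 1.12 and 1.47 to 6.80 and 7.69 FPKM (log2 fold change 2.33 ± 0.19 (SE), adjusted p = 1.04e-06). NDRG1 rose by 2.21, ANKRD37 by 1.99, ADM by 1.97 and CA12 by 1.85 on the log2 scale, with adjusted p from 6.34e-08 to 5.18e-04. ANKRD37 rested on 7 and 8 reads in the controls and 32 and 32 reads after both drugs. PFKFB4 rose by 1.38, ENO2 by 1.06, SLC2A3 by 1.01, PFKFB3 by 0.69, PFKL by 0.54 and SLC2A1 by 0.41. PFKL, SLC2A1 and PFKFB3 lost the call under the correction for GC content (0.016, 0.11 and 0.37), and PFKL and SLC2A1 also without replicate II of the co-treatment or replicate I of the control.

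HIF1A fell from 83.1 and 74.8 to 49.8 and 36.2 FPKM (log2 fold change -0.94 ± 0.12 (SE), adjusted p = 3.24e-05), and within MiaPaCa2 the share of EPAS1 in the summed alpha-subunit FPKM was highest in these libraries. After correction for GC content HIF1A was at -0.50 and still called. ENO1 and LDHA fell by 0.46 and 0.48 on the log2 scale (adjusted p = 2.47e-04 and 4.13e-04), and the ENO1 call was lost without replicate I of the co-treatment, with scaling by library size alone and in the model of all 16 libraries. HK2, PGK1 and SLC16A3 had log2 fold changes of -0.15, 0.03 and 0.28, and were not called. Over the 4 treatment comparisons 18 of the 35 tested members were called in MiaPaCa2 at least once, against 45.5% of all genes tested, and the 17 that never were include HK1, HK2, GPI, ALDOA, GAPDH, PGK1, PGAM1 and both lactate transporters.

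**Figure D4:**
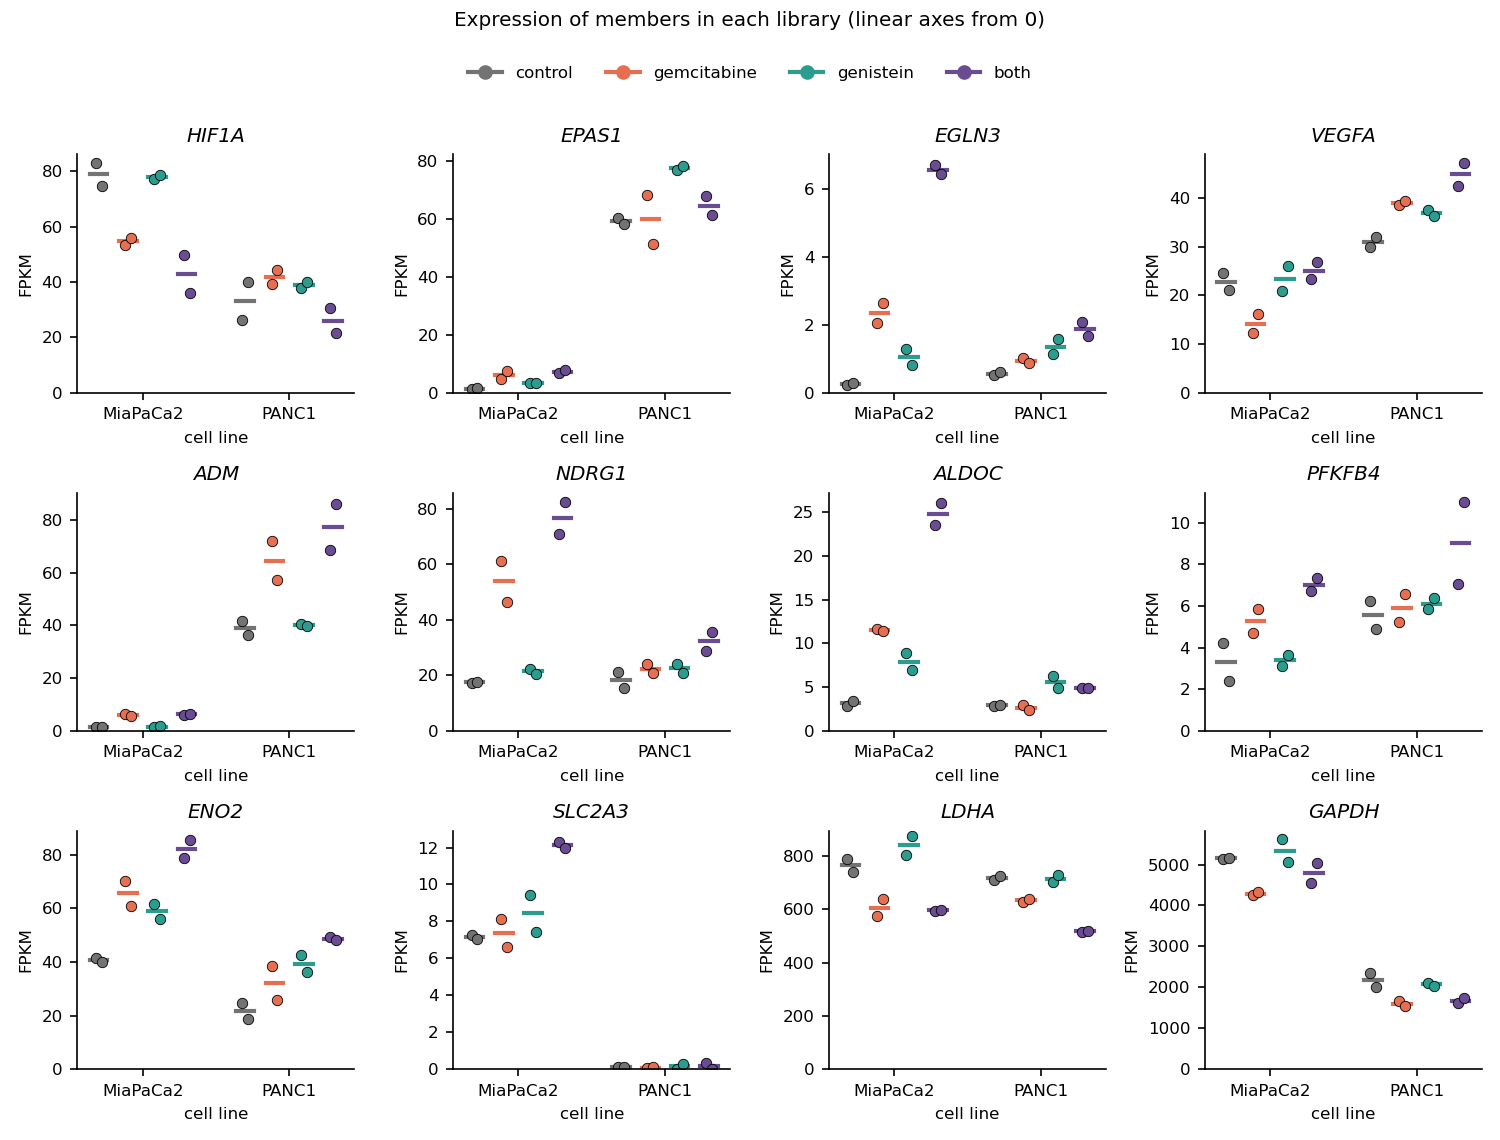
FPKM (y axes, linear from 0) of 12 members in each of the 16 libraries, with points for replicates, bars for group means and colours for treatment, MiaPaCa2 left and PANC1 right in each panel. EGLN3, NDRG1 and ALDOC reach their highest values in co-treated MiaPaCa2, and EPAS1 and ADM are higher in every PANC1 library than in any MiaPaCa2 library.

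In PANC1, GAPDH was the 1 member that passed the test after gemcitabine. Of 36 members 0 were called higher and 1 lower, against 4.49% and 3.03% of all genes. At an unadjusted p under 0.05 there were 16 members, and the share of all genes at that level is not given here. GAPDH, which oxidises glyceraldehyde 3-phosphate, fell from 2361 and 2000.0 to 1656 and 1546 FPKM (log2 fold change -0.56 ± 0.10 (SE), adjusted p = 0.0172). PKM (-0.41, adjusted p = 0.0529) and TPI1 (-0.42, adjusted p = 0.0535) were not called, while LDHA passed the adjusted p (0.0337) with a log2 fold change of -0.32. HIF1A, EPAS1, VEGFA, SLC2A1, HK2, PGK1 and SLC16A3 had log2 fold changes of 0.10, -0.08, 0.18, -0.17, 0.49, -0.32 and -0.78. The GAPDH call was lost without either gemcitabine library, and its log2 fold change lay between -0.73 and -0.44 over the alternatives. The number of called members moved without replicate II of the PANC1 control, which has the most reads of all libraries. The PANC1 controls also differed in how counts rose with GC content, by 0.28 and -0.08 on the log2 scale per 10 points of GC. After a correction for it 9 members were called, and the share of all genes under this correction is not given here.

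Genistein alone called 0 members in PANC1 by limma-voom and by edgeR, against 0.0591% higher and 0% lower among all genes by limma-voom. DESeq2 called 2 (ENO2 and SLC16A3), and 10 members had an unadjusted p under 0.05, both without a share of all genes here. ENO2 went from 24.6 and 18.6 to 42.5 and 36.3 FPKM (log2 fold change 0.81 ± 0.16 (SE), adjusted p = 0.109) and ALDOC from 2.88 and 3.01 to 6.24 and 4.89 FPKM (log2 fold change 0.78 ± 0.16 (SE), adjusted p = 0.112). HIF1A, EPAS1, VEGFA, SLC2A1, HK2, PGK1, LDHA and SLC16A3 had log2 fold changes of -0.02, 0.23, 0.30, -0.04, 0.39, 0.06, 0.00 and -0.80. Co-treatment against gemcitabine called 0 members by limma-voom and edgeR, against 0.0118% and 0.00591% of all genes by limma-voom. DESeq2 called 1, NDRG1, and 10 members had an unadjusted p under 0.05, again without a share of all genes. NDRG1 went from 24.1 and 20.7 to 28.9 and 35.5 FPKM and EGLN3 from 1.02 and 0.865 to 2.09 and 1.67 FPKM in that comparison, both without overlap (adjusted p = 0.135 and 0.136). In the same comparison HIF1A, EPAS1, VEGFA, SLC2A1, HK2, PGK1, LDHA and SLC16A3 had log2 fold changes between -0.62 and 0.32, HIF1A at the lower end and SLC2A1 and HK2 at the upper.

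Co-treatment in PANC1 raised EGLN3, ENO2 and NDRG1 and lowered LDHA, the exporter SLC16A3 and several enzymes relative to the control. Calls were 6 higher and 6 lower, against 10.2% and 6.9% of all genes. EGLN3 rose from 0.518 and 0.601 to 2.09 and 1.67 FPKM (log2 fold change 1.53 ± 0.26 (SE), adjusted p = 0.00652), on 20 and 33 reads in the controls and 43 and 55 reads after both drugs, and ENO2 rose from 24.6 and 18.6 to 49.5 and 48.1 FPKM (log2 fold change 1.02 ± 0.15 (SE), adjusted p = 0.0037). NDRG1 rose by 0.87, PFKFB3 by 0.85, HK2 by 0.81 and ADM by 0.73. The ADM call was lost with the replicate number as a block and without replicate II of the co-treatment (0.46) or of the control, and that of HK2 without replicate I of the co-treatment. LDHA fell from 709 and 725 to 516 and 518 FPKM (log2 fold change -0.62 ± 0.07 (SE), adjusted p = 0.00183). SLC16A3 fell by 0.92, TPI1 and GAPDH each by 0.54, HK1 by 0.45 and ENO1 by 0.42, while the SLC16A3 FPKM of 115.8 and 205 after both drugs overlapped the 282 and 199 of the controls. The calls of SLC16A3, HK1 and ENO1 were lost with the replicate block and without replicate I of the co-treatment or of the control, with SLC16A3 between -1.32 and -0.54 over the alternatives. The TPI1 call was lost without replicate I of the co-treatment, and scaling by library size alone took the call from TPI1, GAPDH, HK1 and ENO1.

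HIF1A, EPAS1, VEGFA, SLC2A1 and PGK1 had log2 fold changes of -0.53, -0.08, 0.36, 0.15 and -0.38 and were not called, while BNIP3 and LDHB were at 0.14 and -0.27. The fold threshold kept out VEGFA (adjusted p = 0.0324) and PGK1 (adjusted p = 0.0167). Scaling by library size alone, which moves the median of all genes from 0.01 to 0.17, gave 12 members higher and 2 lower in this comparison. The correction for GC content gave 8 higher and 11 lower. Shares of all genes under these settings are not given here. In both lines 5 members rose (ADM, EGLN3, ENO2, NDRG1 and PFKFB3), which are 5 of 13 in MiaPaCa2 and 5 of 6 in PANC1, and 2 fell (ENO1 and LDHA), which are 2 of 3 and 2 of 6. Over all genes 872 were called higher in both lines, 26.7% of those in MiaPaCa2 and 50.4% of those in PANC1, and 481 lower, 14.8% and 41.2%.

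Whether the lines differed in their response to gemcitabine was tested directly in a model of all 16 libraries. The response differed for 10 of the 37 members tested, 3 with a higher value in PANC1 and 7 with a higher value in MiaPaCa2, against 15.3% of all genes. The difference was -2.80 on the log2 scale for EGLN3 (adjusted p = 0.00375), -2.0 for ALDOC (4.24e-04), -1.92 for EPAS1 (2e-04) and -1.31 for NDRG1 (7.06e-04). Each of these genes rose in MiaPaCa2 and was not called in PANC1, where its log2 fold change lay between -0.28 and 0.39. VEGFA differed the other way, by 0.83 (adjusted p = 0.00119), with 29.9 and 32.0 FPKM in the PANC1 controls and 38.6 and 39.3 FPKM after gemcitabine.

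ADM, HK1 and PFKFB4 also responded more positively in MiaPaCa2, and EGLN1 and HK2 more positively in PANC1, with adjusted p from 0.0271 to 0.0457. For HK1 the log2 fold change was 0.12 in MiaPaCa2 and -0.41 in PANC1, and for HK2 it was -0.33 and 0.49, with none of these called within a line. The number of differing members was 5 to 6 when either MiaPaCa2 control, either MiaPaCa2 gemcitabine library, replicate II of PANC1 gemcitabine or replicate I of the PANC1 control was left out, 7 without replicate I of PANC1 gemcitabine, and 20 without replicate II of the PANC1 control. EPAS1, EGLN3, VEGFA, NDRG1 and ALDOC were called in each of these fits. For genistein 0 of 37 members differed between the lines by limma-voom and edgeR, against 0.0336% of all genes by limma-voom. DESeq2 called 1, EPAS1, and 6 members had an unadjusted p under 0.05, both without a share of all genes here.

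**Figure D5:**
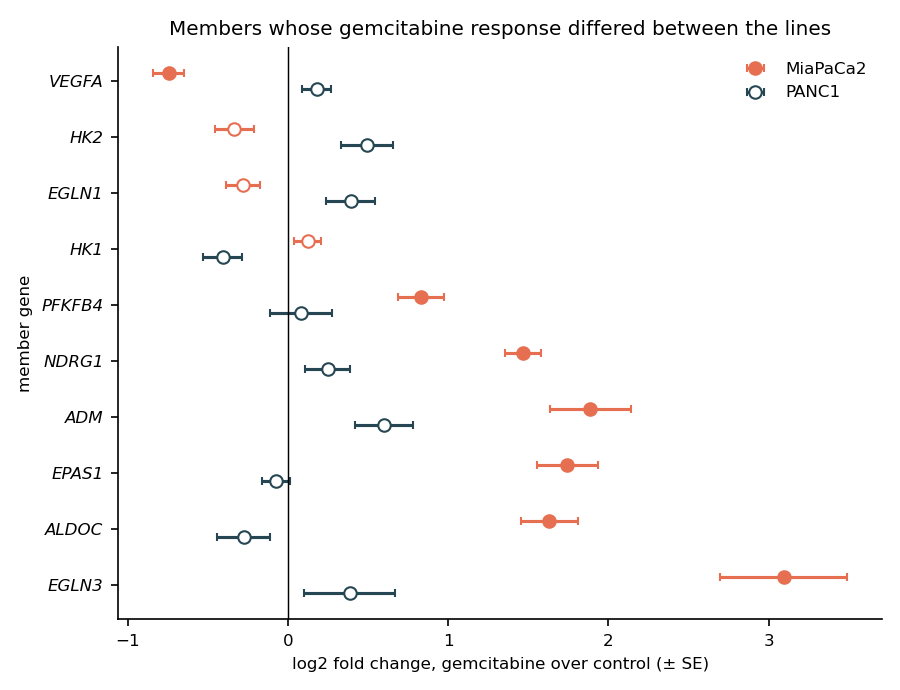
Log2 fold change of gemcitabine over control (x axis) with standard errors in MiaPaCa2 and PANC1 for the 10 members (y axis) whose response differed between the lines, with filled points for called changes. From EGLN3 up to HK1 the MiaPaCa2 point lies to the right of that of PANC1, for EGLN1, HK2 and VEGFA it lies to the left, and 0 of the PANC1 points are filled.

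The 17 enzymes from hexokinase to lactate dehydrogenase together took 2.04% to 2.05% of all counted reads in the MiaPaCa2 controls, 1.71% to 1.73% after gemcitabine, 2.19% to 2.37% after genistein and 1.82% to 2.0% after both. In PANC1 the range was 1.43% to 1.68% in the controls, 1.26% to 1.35% after gemcitabine, 1.57% to 1.60% after genistein and 1.26% to 1.37% after both. In each line the gemcitabine libraries lay below the controls without overlap.

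The upstream sequences of the members were searched for the core of the element that hypoxia-inducible factors recognise, ACGTG or GCGTG, on both strands. RefSeq sequences of the 250 bases before the gene start (GRCh38.p14) were matched for 34 of the 38 members. A match was present in 22 of them (64.7%), against 43.1% of 27305 promoters of all genes, and ACGTG alone was present in 13 (38.2%) against 18.7%. ACGTG is also part of the CACGTG box bound by MYC and related factors, which was present in 5 of the 34 members and in 1772 of all promoters. Among the members that rose in co-treated MiaPaCa2, 9 of the 11 with a sequence held a match, as did 3 of the 3 that fell. Among those called in co-treated PANC1, 4 of the 5 that rose and 3 of the 6 that fell held a match. EGLN3 and SLC2A1 held none in this window. A match is a description of letters and not of binding. The members were chosen in part as known hypoxia targets, and the promoters of all genes were not matched to them for GC content. The higher share among the members is therefore not a result of these libraries.

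Stretches of 60 bases are shown for 5 of the members that rose after co-treatment, to let the matches be compared, with the matched letters in capitals, where CACGT and CACGC are the same motifs read on the other strand. They lie at chr11:10304942-10305001 (plus strand) for ADM, chr4:185396656-185396715 (plus) for ANKRD37, chr17:28576903-28576962 (minus) for ALDOC, chr10:6144723-6144782 (plus) for PFKFB3 and chr12:6914432-6914491 (plus) for ENO2 in GRCh38.p14.
ADM: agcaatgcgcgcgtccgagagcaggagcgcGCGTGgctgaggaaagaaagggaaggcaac
ANKRD37: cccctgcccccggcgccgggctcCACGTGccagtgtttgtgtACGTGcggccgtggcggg
ALDOC: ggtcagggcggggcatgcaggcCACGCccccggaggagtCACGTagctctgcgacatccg
PFKFB3: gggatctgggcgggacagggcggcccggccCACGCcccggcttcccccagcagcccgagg
ENO2: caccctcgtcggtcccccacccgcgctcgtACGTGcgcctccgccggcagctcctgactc

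The genes around the module were described from lists of related genes. Of 31 other hypoxia target genes, 5 were called higher and 2 lower after gemcitabine in MiaPaCa2 (28 tested) and 4 higher and 1 lower in PANC1 (31 tested), beside 15% and 14.6% of all genes in MiaPaCa2 and 4.49% and 3.03% in PANC1. CXCR4, a chemokine receptor, rose in both lines, by 2.45 in MiaPaCa2 (adjusted p = 3.37e-04) and by 1.96 in PANC1 (adjusted p = 0.0268), and after co-treatment by 4.56 and 3.09. ANGPTL4, a lipoprotein lipase inhibitor, rose by 1.32 after gemcitabine in MiaPaCa2 (adjusted p = 3.01e-04), whereas BHLHE40, a transcriptional repressor, rose by 1.42 in PANC1 (adjusted p = 8.71e-04). DDIT4, an inhibitor of mTORC1 signalling, fell by 1.43 there (adjusted p = 0.00557).

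Of 16 HIF regulators and partners, 1 was higher and 3 were lower after gemcitabine in MiaPaCa2 (15 tested, beside 15% and 14.6% of all genes). After co-treatment in PANC1, 2 were higher and 0 lower (15 tested, beside 10.2% and 6.9% of all genes). These counts are near the shares of all genes. After co-treatment in MiaPaCa2, 1 was higher and 4 were lower (15 tested, beside 20.3% and 20.2% of all genes). In MiaPaCa2 the higher one was FHL1, which rose by 0.69 after gemcitabine (adjusted p = 2.48e-04) and by 0.66 after co-treatment (adjusted p = 1.69e-04). EP300, a coactivator of the hypoxia-inducible factors, fell by 0.59 after gemcitabine (adjusted p = 6.96e-04) and by 0.92 after co-treatment in MiaPaCa2 (adjusted p = 1.63e-05), and its partner CREBBP fell by 0.77 after co-treatment (adjusted p = 3.57e-05). Of 43 other glycolytic isoenzymes and pyruvate genes, 7 were higher and 3 lower after gemcitabine in MiaPaCa2 (31 tested) and 0 higher and 1 lower in PANC1 (28 tested). Among all genes the shares were 15% and 14.6% in MiaPaCa2 and 4.49% and 3.03% in PANC1. MPC1, a subunit of the carrier that takes pyruvate into mitochondria, rose by 1.29 in MiaPaCa2 and by 0.64 in PANC1 after co-treatment (adjusted p = 4.3e-06 and 0.0225). Of 8 pentose phosphate genes, 1 was called lower after gemcitabine in each line, beside 14.6% of all genes in MiaPaCa2 and 3.03% in PANC1. These were RPE in MiaPaCa2 (fell by 0.59, adjusted p = 0.00251) and TKT in PANC1 (fell by 0.71, adjusted p = 0.0337).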

How the data were processed

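Per the labels and the methods of the study, poly-A RNA was read as single 50 base reads. The authors aligned them to GRCh37 with TopHat2 2.0.4, removed reads with several alignments, used Picard 1.29 and SAMtools, counted reads per gene with HTSeq 0.6.1 and estimated FPKM with Cufflinks 2.1.1. The deposited counts were raw, and the deposited FPKM values were normalized by the authors for length and depth. The annotation release and the strand setting are not given in the sources used here.

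Counts were scaled by TMM (edgeR 4.0.16), filtered with filterByExpr and tested with limma-voom (limma 3.58.1) with 1 mean per group and Benjamini-Hochberg adjustment over all genes. Treatment effects and interactions used the 8 libraries of a line, and the untreated lines and differences between lines used all 16. edgeR's quasi-likelihood test, DESeq2 (1.42.0), other scalings and filters, a GC correction (loess), a replicate term and leaving out each library were alternatives. The tests were checked on simulated counts. Differences between lines in a drug response, and interactions, were called on the adjusted p alone.

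Exon overlaps, pseudogenes and GC content came from GENCODE 44 mapped to GRCh37. Member symbols and gene lists were chosen with earlier results of these data known. Genes named in every treatment comparison were HIF1A, EPAS1, VEGFA, SLC2A1, HK2, PGK1, LDHA and SLC16A3, beside all called members, and CA9 was to be among them but could not be tested. Intervals cover counting error only. FPKM fold changes were not tested.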

Additional observations from a re-analysis of the deposited data

Results flagged for a closer look

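For 10 members the response to gemcitabine differed between the lines by an interaction test in limma-voom over all 16 libraries. The differences, as the PANC1 log2 fold change minus that of MiaPaCa2, were -2.80 for EGLN3, -2.0 for ALDOC, -1.92 for EPAS1, -1.38 for ADM, -1.31 for NDRG1, -0.84 for PFKFB4 and -0.63 for HK1. They were positive for VEGFA (0.83), HK2 (0.73) and EGLN1 (0.58). EPAS1, EGLN3, VEGFA, NDRG1 and ALDOC kept the call in all 16 alternatives. The call was lost in 6 alternatives for HK2, in 7 for HK1, in 8 for ADM and EGLN1 and in 11 for PFKFB4. EGLN3 rested on 6 and 12 reads in the MiaPaCa2 controls.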

How the results depend on the processing

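Most counts of called members under other settings stand without the share of all genes under the same setting. They therefore do not show whether the members moved apart from other genes. Counts of called members kept within 1.5 times of the main count in both lines except as follows. DESeq2 called 1 member in the MiaPaCa2 interaction, 4 after gemcitabine, 2 after genistein and 1 for co-treatment against gemcitabine in PANC1, and 1 for the genistein response between lines. For gemcitabine in PANC1, library size alone gave 4 calls (all-gene median 0.14 against 0.03), no low-count filter 2 and the adjusted p alone 2. With all 16 libraries in one model PANC1 had 10 calls for gemcitabine, 3 for genistein and 2 for co-treatment against gemcitabine. The GC correction gave 2 calls for the MiaPaCa2 interaction. It gave 9, 2, 4 and 19 in PANC1 for gemcitabine, genistein, co-treatment against gemcitabine and co-treatment against control, and 17 and 3 for the gemcitabine and genistein responses between lines. Together with the replicate block these last 6 counts were 8, 2, 4, 19, 17 and 3. PFKL after gemcitabine in MiaPaCa2 turned from 0.41 to -0.11 under the GC correction and to -0.11 with the block added. The cause was not tested.

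With single libraries left out, calls ranged from 1 to 5 for genistein and from 3 to 11 for co-treatment against gemcitabine in MiaPaCa2, from 0 to 10 for gemcitabine in PANC1, and from 5 to 20 and from 0 to 1 for the gemcitabine and genistein responses between lines. Correlations of deviations between same-numbered libraries lay between -0.197 and 0.115 in MiaPaCa2 and between -0.503 and 0.278 in PANC1. They showed no regular pairing by replicate number. They cannot exclude it, because differences between single libraries, such as the slope on GC content, enter them too. The replicate block gave 14, 5, 9 and 16 calls in MiaPaCa2 (gemcitabine, genistein, co-treatment against gemcitabine, co-treatment against control), 1 for gemcitabine and 8 for co-treatment against control in PANC1, 24 between the untreated lines and 7 for the gemcitabine response. Of the single-gene values, 839 kept direction and call, 55 lost the call and 2 turned over alternatives other than leaving out a library. The 839 include 84 values under the adjusted p alone. That setting only drops criteria from the main fit, so no call could be lost there. With libraries left out 322 kept the call and 94 lost it. In MiaPaCa2, the genistein call of NDRG1 was lost in 10 of 14 alternatives and that of PKM in 8, and the gemcitabine call of PFKL in 7. Depth limits EGLN3, ANKRD37, CA9, and LDHB and BNIP3 in MiaPaCa2.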
